A study of Homo sapiens with 12 samples.

Results

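The microRNAs described here carry late registry numbers, hsa-miR-3000 and upward. A row of the authors' deposited tables was taken when its number was 3000 or more and its mean log2 CPM was 2.0 or more in at least 1 of the 2 tables. CPM stands for counts per 1000000 reads. That gave 112 microRNAs of the 952 that appear in at least 1 table, out of 384 late-numbered rows at any level. All 112 are in both tables. The deposited log2 CPM includes an added 2 CPM, so 2.0 stands for a mean of 2 CPM. The level chose them, so their levels are a description. The fold changes were not used in the choice. They are read here as altered cells over control cells, a direction the tables do not state.

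The data are small-RNA libraries of K562, an established human leukaemia cell line with erythroid features, in 4 groups of 3 libraries. One comparison sets cells that received a guide RNA labelled sgCYRANO against cells that received a non-targeting guide (sgNT). The other sets ZSWIM8 knockout cells (ZSWIM8-/-) against wild-type cells (WT), with no guide named for either of these groups. The labels call the libraries biological triplicates of each cell line, with no word on whether the knockout is 1 clone. No age, time or further treatment is given. In these bulk libraries, a change in every cell and a change in a share of the cells cannot be told apart.

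A microRNA is cut from a hairpin in a longer transcript by the nucleases Drosha and Dicer, and 1 strand of the hairpin is kept by an Argonaute protein. The seed, the bases next to the 5′ end, pairs with messenger RNAs. In target-directed microRNA decay an unusually complementary RNA instead leads to loss of the microRNA itself. CYRANO, a long non-coding RNA, is the known trigger for miR-7, and ZSWIM8 is the substrate receptor of the ubiquitin ligase in this pathway. MicroRNAs were numbered in order of registration, so the late numbers are mostly those found by deep sequencing. Many lie in introns of coding genes, some are spliced out as mirtrons without Drosha, and some overlap other non-coding RNAs. The tables hold human names only, so how far each is conserved was not analysed here.

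The members that moved in the ZSWIM8 comparison, and the most abundant ones, are shown here as mature sequences from RefSeq (GRCh38.p14). miR-4326, also among the most abundant, had no sequence there and is left out. Each sequence runs 5′ to 3′, with the seed, bases 2 to 8, in capitals. 
miR-4521: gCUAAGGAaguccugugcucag
miR-4485-3p: uAACGGCCgcgguacccuaa
miR-6503-3p: gGGACUAGgaugcagaccucc
miR-4772-3p: cCUGCAACuuugccugaucaga
miR-3177-3p: uGCACGGCacuggggacacgu
miR-10399-3p: cUCUCGGAcaagcuguagguc
miR-3180-5p: cUUCCAGAcgcuccgccccacgucg
miR-3615: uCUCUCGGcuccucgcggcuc
miR-3909: uGUCCUCUagggccugcagucu

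No 2 of these have the same seed. A mature sequence was found for 97 of the 112, and these 97 had 97 distinct seeds. No seed is shared between any 2 of these 97, and the other 15 members were not compared for it. Of the 97, 6 share a seed with some other row of the tables. One such pair is the near-identical miR-6511a-3p and miR-6511b-3p, and another joins miR-3118 to miR-134-5p, shown here because reads or targets may be shared.
miR-6511a-3p: cCUCACCAucccuucugccugc
miR-6511b-3p: cCUCACCAccccuucugccugca
miR-3118: uGUGACUGcauuaugaaaauucu
miR-134-5p: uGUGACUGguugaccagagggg

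In the authors' deposited table of the ZSWIM8 comparison, miR-6511a-3p had a log2 change of 1.11 ± 0.718 and miR-6511b-3p one of 0.50 ± 0.909. miR-3118 had 0.37 ± 0.592 and miR-134-5p 1.61 ± 0.896 in that authors' deposited table. The error here and below is a standard error worked back from the deposited fold change and p. None of the 4 passed an adjusted p of 0.05 by edgeR's quasi-likelihood test with Benjamini-Hochberg adjustment, the authors' test.

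The 97 mature sequences had a median length of 22 bases and a median GC content of 54.5%. Earlier-numbered microRNAs that met the same threshold of level had the same median length and a median GC content of 47.7%, over 352 sequences. They were not matched to the members for level. In the ZSWIM8 table the median member had 4.25 CPM. Numbers under 1000 and let-7 had a median of 46.0 CPM, and those from 1000 up to the members' range 18.7 CPM. U was the first base in 53 of the 97 (54.6%) and in 145 of the 352 (41.2%). A 3p name was given to 52 members, a 5p name to 28, and 32 named no arm. Among the earlier numbers 168 were 3p, 175 were 5p and 45 named no arm. These are descriptions of the names and letters, with no test.

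RefSeq and GENCODE coordinates (GRCh38) were found for 81 hairpins of the members, while the authors' build, hg19, puts no coordinate in the tables. Of the 81, 57 lie within a protein-coding gene on its own strand, and 39 of these touch no sense exon. There were 17 hairpins with no gene on their strand. Another 17 had 1 end within 3 bases of an intron end, as a mirtron or a hairpin at a splice site would, and none had both ends there. Of these 17, 15 are measured as the 3p strand, among them miR-6833-3p and miR-6873-3p.

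The hairpins of the moved members sit in unlike places. Coordinates given here are those of the mature strand, while overlap with genes and exons was taken for the whole hairpin. miR-4521 (chr17:8186948-8186969, plus strand) lies in no gene of its strand. miR-3177-3p (chr16:1735038-1735058, plus strand) is intronic in MAPK8IP3, the gene of a kinase scaffold. The hairpin of miR-10399-3p (chr7:139044100-139044120, minus strand) overlaps an exon of ZC3HAV1, an antiviral zinc-finger gene. miR-4772-3p (chr2:102432336-102432357, plus strand) is intronic in IL18RAP, an interleukin receptor gene. miR-6503-3p (chr11:60209084-60209104, minus strand) is intronic in MS4A4E. The hairpin of miR-4485-3p (chr11:10508277-10508296, minus strand) overlaps an exon of MTRNR2L8, a nuclear copy related to the mitochondrial large ribosomal RNA.

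The mature sequences of 3 members occur letter for letter in another non-coding RNA among 5707 small or mitochondrial transcripts searched. The sequence of miR-4485-3p lies in MT-RNR2, the mitochondrial large ribosomal RNA. That of miR-12136 lies in MT-TS1, a mitochondrial serine transfer RNA, and that of miR-6516-5p in SCARNA16, a guide RNA for modifying other small RNAs. A read of these letters cannot be told apart by its source. The authors' rule for counting such reads was not given in the sources used here.
miR-12136: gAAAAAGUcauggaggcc
miR-6516-5p: uUUGCAGUaacaggugugagca

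The late-numbered microRNAs were a small part of each library. The 112 summed to 2200 CPM in sgNT and 2130 CPM in sgCYRANO, 0.22% and 0.213% of all CPM. In WT and ZSWIM8 KO they summed to 2350 and 2240 CPM, or 0.235% and 0.224%. The median member had a mean of 4.01 CPM in the sgCYRANO table and 4.25 CPM in the ZSWIM8 table. At 100 CPM or more there were 6 members in the sgCYRANO table against 5 in the ZSWIM8 table, while 63 and 64 were under 5 CPM. The tables were normalised separately, so levels set across them are side by side only.

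miR-4521 was the most abundant member in both authors' deposited tables, at a mean of 486 CPM (rank 75 of all rows) for sgCYRANO and 570 CPM (rank 73) for ZSWIM8. miR-3180-5p, which has 3 hairpin copies, came next at 241 CPM in sgNT and 307 CPM in sgCYRANO, and at 257 CPM in WT against 286 CPM in ZSWIM8 KO. miR-3615, within the gene of the scaffold protein SLC9A3R1, stood at 190, 186, 203 and 214 CPM in the groups sgNT, sgCYRANO, WT and ZSWIM8 KO, taken in turn. miR-4326 had 107, 106, 128 and 134 CPM in the same order, and miR-3909, intronic in TOM1, had 122, 105, 102 and 134 CPM. Both miR-3615 and miR-4326 were within 1.05-fold between groups in either comparison, and the 95% interval of the log2 change in ZSWIM8 KO ran from -0.24 to 0.39 for miR-3615 and from -0.30 to 0.42 for miR-4326.

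The depth was worked back from the tables. Low group means in the deposited tables are sums of whole reads of 3 libraries, which gave 1550000 to 2300000 reads in sgNT and 1670000 to 1850000 in sgCYRANO. WT had 861000 to 1850000 and ZSWIM8 KO 2090000 to 2490000. Up to a mean of 1 CPM all sums in all 4 groups were matched by whole reads. The deepest, middle and shallowest library of a group are named so here, since they cannot be tied to replicate numbers. A count of 3 reads over a group, a limit for counting error only, is 0.425 CPM in ZSWIM8 KO, 0.788 CPM in WT, 0.567 CPM in sgCYRANO and 0.546 CPM in sgNT. Neither CYRANO nor ZSWIM8 RNA is in small-RNA tables, so the targeted genes were not analysed here. miR-7-5p rose by 2.52 ± 0.089 in sgCYRANO and by 2.35 ± 0.139 in ZSWIM8 KO on the log2 scale in the authors' deposited tables (adjusted p 5.03e-174 and 8.48e-61, edgeR). Of 6 decay substrates listed for reference, 4 were measured, and miR-30b-5p and miR-30c-5p were in neither authors' deposited table. miR-221-3p and miR-222-3p fell in ZSWIM8 KO (log2 changes of -4.76 ± 0.483 and -4.87 ± 0.58), the opposite direction to miR-7-5p. miR-29b-3p did not pass in either authors' deposited table. The erythroid miR-486-5p and miR-451a averaged 11900 and 812 CPM beside the guides and 13900 and 765 CPM beside the knockout, against 2.03 and 1.25 CPM for the liver microRNA miR-122-5p.

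**Figure D1:**
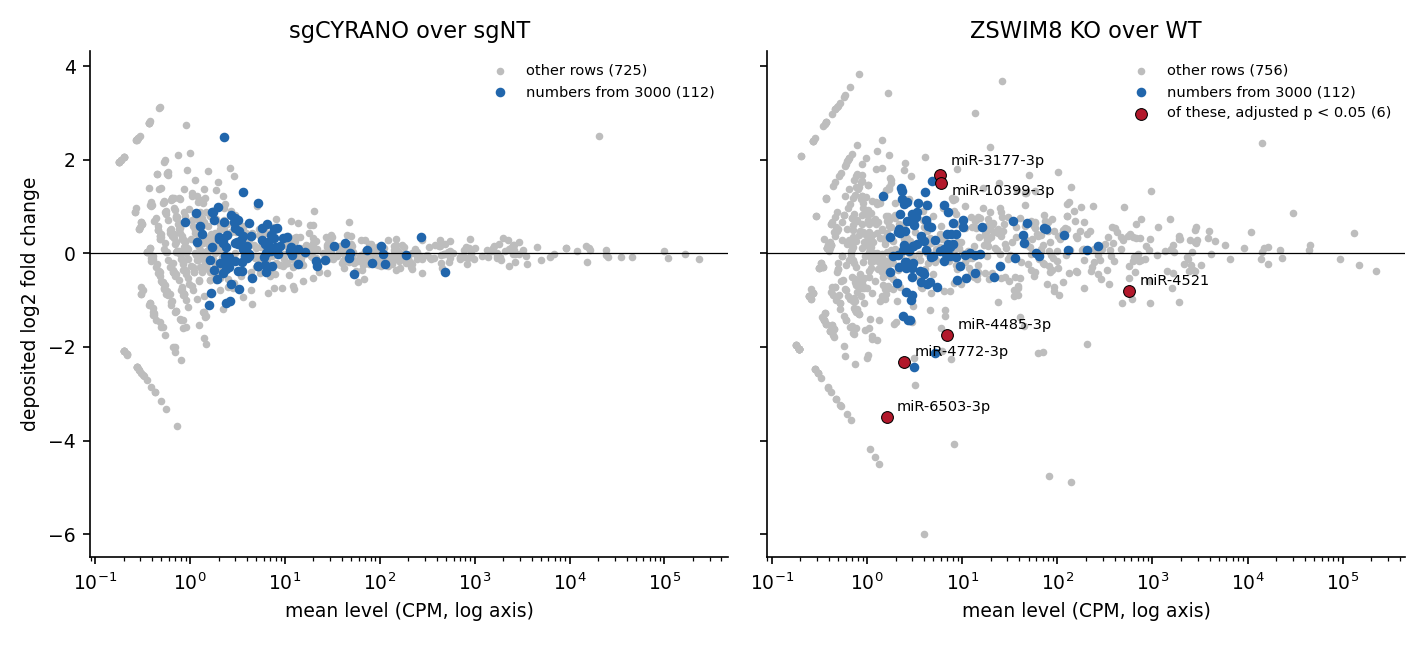
Mean level of each microRNA (CPM, log axis) against its deposited log2 fold change, sgCYRANO over sgNT on the left and ZSWIM8 KO over WT on the right. Grey points are all other rows, blue points the 112 late-numbered microRNAs and red points the 6 of these past an adjusted p of 0.05, all in the ZSWIM8 comparison.

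In the sgCYRANO comparison, which asks what changes when the miR-7 trigger is targeted, none of the 112 passed an adjusted p of 0.05 by the authors' edgeR test. In that authors' deposited table, 1 of 837 rows was called, meaning past that threshold (0.119%), so a count of 0 does not set the members apart. At an unadjusted p under 0.05 there were 6 members, 4 higher and 2 lower, where 5.85% of all rows reached that. The median log2 change of the members was 0.10, against 0.01 over all rows. Their values ran from -1.09 to 2.48, with 65 above 0 and 47 below. The 95% interval lay within a 2-fold change either way for 32 members and within 1.5-fold for 11, so for most members the interval includes a 2-fold change.

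Among the 112, miR-3928-3p had the largest fold change and the smallest p in that comparison. It had 0, 3 and 0 reads in the deepest, middle and shallowest sgNT library, and 21 reads in all in sgCYRANO. By group means it was 6.51-fold higher in sgCYRANO, at 3.97 CPM against 0.609 CPM in sgNT. Pooled reads over the summed depth of each group gave a ratio of 7.26, with an exact 95% counting interval of 2.17 to 38.0. This interval pools the reads of each group and leaves out the spread between libraries. edgeR's adjusted p for miR-3928-3p was 0.405, per the authors' deposited table. In WT the same microRNA had 10, 0 and 1 reads, so it also varied widely within a group for which no guide is named.

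miR-3180-5p was 1.27-fold higher in sgCYRANO by its group means, a log2 change of 0.35 ± 0.121 (edgeR adjusted p 0.405, authors' deposited table). In ZSWIM8 KO its log2 fold change was 0.15 ± 0.152 in the authors' deposited table. miR-4521 was at 552 CPM in sgNT and 419 CPM in sgCYRANO, a log2 change of -0.40 ± 0.157 (edgeR adjusted p 0.631, authors' deposited table). miR-4677-3p, intronic in SDCCAG8, was at 61.7 and 45.3 CPM, a log2 change of -0.44 ± 0.175 (edgeR adjusted p 0.631, authors' deposited table). The remaining 2 of the 6 were miR-4745-5p (2.05 against 5.25 CPM) and miR-7854-3p (3.32 against 7.12 CPM), both at an edgeR adjusted p of 0.816 (authors' deposited table). The 3 abundant ones of these 6 differed by 1.27- to 1.36-fold, and the 3 scarce ones by over 2-fold.

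Whole reads were found in both groups for 89 of the 112 in the sgCYRANO comparison. The 3 libraries of 1 group all lay above those of the other for miR-3605-3p and for miR-4435. miR-3605-3p had 2.17, 1.83 and 2.59 CPM in the sgNT libraries and 3.24, 5.08 and 3.0 CPM in sgCYRANO. miR-4435 had 2.17, 2.44 and 1.94 CPM in sgNT and 0.541, 1.13 and 1.2 CPM in sgCYRANO. Over all rows with reads found, 1.65% did not overlap upward and 3.49% downward. The libraries of 81 of the 89 members overlapped, against 91.0% of such rows, and 6 of the 89 had solutions of both kinds, against 3.86%. With 3 libraries a group, the smallest exact two-sided permutation p is 0.1, so no separation of single members can pass a threshold of 0.05.

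In the ZSWIM8 comparison, which asks what changes without the ligase's receptor, 6 of the 112 passed an adjusted p of 0.05 by edgeR. Those higher in the knockout were miR-3177-3p and miR-10399-3p, and those lower were miR-4521, miR-4485-3p, miR-6503-3p and miR-4772-3p. These 6 are 5.36% of the members, where 9.91% of all 868 rows were called (4.72% higher and 5.18% lower). At the same threshold of level, 67 of 346 microRNAs numbered under 1000 and let-7 were called (19.4%), and 9 of 42 numbered from 1000 up to the members' range (21.4%). These sets lay higher in level, with median means of 46.0 and 18.7 CPM against 4.25 CPM for the members. Among the earlier numbers 6.9% were called at 4 to 10 CPM and 36.7% at 100 CPM or more. At an unadjusted p under 0.05 there were 17 members, 10 higher and 7 lower, where 19.8% of all rows reached that. The members' median log2 fold change was 0.08, and so was that of all rows. Centred on the rows at 10 CPM or more, whose median was 0.129, the members' median was -0.049. Values ran from -3.49 to 1.66, with 64 above 0 and 48 below, and the 95% interval lay within 2-fold for 21 members.

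miR-4521 was the one called member at 10 CPM or more. It was at 724 CPM in WT against 416 CPM in ZSWIM8 KO, 1.74-fold lower in the knockout. The log2 fold change was -0.80 ± 0.135 (edgeR adjusted p 1.59e-07, authors' deposited table). Its reads per library could not be told apart at this level. It was also lower in sgCYRANO (above), without passing there. The difference of its log2 fold changes between the 2 comparisons was -0.40 ± 0.206, with an adjusted p of 0.346 by a normal test over all rows shared by the tables.

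miR-4485-3p, the member with the mitochondrial ribosomal sequence, was at 10.7 CPM in WT against 3.12 CPM in ZSWIM8 KO. Its log2 fold change was -1.74 ± 0.499 (edgeR adjusted p 0.00749, authors' deposited table). In ZSWIM8 KO it had 21 reads in all, 12 of them in the shallowest library. sgNT and sgCYRANO had 7.04 and 7.35 CPM. miR-12136, with the mitochondrial transfer RNA sequence, was at 25.8 CPM in WT against 18.1 CPM in ZSWIM8 KO, a log2 change of -0.50 ± 0.343 (edgeR adjusted p 0.457, authors' deposited table). miR-6516-5p, with the SCARNA16 sequence, had 2.28 CPM in WT (9 reads) against 5.83 CPM in ZSWIM8 KO (41 reads), and a log2 change of 1.31 ± 0.595 (edgeR adjusted p 0.17, authors' deposited table). Its 3 knockout libraries all lay above the 3 WT libraries.

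miR-6503-3p had 0, 5 and 4 reads in the deepest, middle and shallowest WT library and 0, 0 and 1 in the ZSWIM8 KO libraries. The groups overlap at 0, since the deepest WT library had no read. By group means it was 19.3-fold higher in WT, at 3.07 CPM against 0.159 CPM in ZSWIM8 KO. Pooled reads over the summed depth of each group gave a ratio of 16.7, with an exact 95% counting interval of 2.31 to 731. That interval pools the reads of each group and leaves out the spread between libraries. The deposited log2 fold change, which depends on the prior count at so few reads, was -3.49 ± 1.145 (edgeR adjusted p 0.028, authors' deposited table). The other strand of the same hairpin, miR-6503-5p, had 7, 7 and 2 reads in the WT libraries, and 11 in all in ZSWIM8 KO with 0 in the shallowest library. Its log2 fold change was -1.42 ± 0.71 (edgeR adjusted p 0.239, authors' deposited table). This stretch is the 5p strand.
miR-6503-5p: aGGUCUGCauucaaauccccaga

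miR-4772-3p had 4.86, 5.48 and 2.32 CPM in the deepest, middle and shallowest WT library, from 9, 6 and 2 reads. In ZSWIM8 KO it had 0.402, 0.403 and 1.44 CPM, from 1, 1 and 3 reads. All 3 knockout libraries lay below all 3 WT libraries. The log2 fold change was -2.32 ± 0.817 (edgeR adjusted p 0.0472, authors' deposited table). sgNT (0, 1 and 4 reads) and sgCYRANO (5, 1 and 1 reads) had 1.07 and 1.29 CPM. Its mean reached the level threshold in the ZSWIM8 table alone, through WT, so its high WT value was part of how it was chosen.

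miR-3177-3p was at 2.77 ± 0.461 CPM in WT (SD, n = 3), from 6, 3 and 2 reads, and at 9.04 CPM in ZSWIM8 KO. The knockout group had 61 to 67 reads, which several divisions among its libraries fit. The log2 fold change was 1.66 ± 0.513 (edgeR adjusted p 0.0168, authors' deposited table). The sgNT and sgCYRANO groups had 6.65 and 5.62 CPM, between WT and the knockout.

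miR-10399-3p was at 3.1 ± 2.14 CPM in WT (SD, n = 3), from 10, 3 and 1 reads, and at 9.04 CPM in ZSWIM8 KO. The log2 fold change was 1.51 ± 0.505 (edgeR adjusted p 0.0339, authors' deposited table). The sgNT and sgCYRANO groups had 7.28 and 7.83 CPM. Centred as above, its adjusted p was 0.0588. Its other strand, miR-10399-5p, was at 6.28 CPM in WT against 9.92 CPM in ZSWIM8 KO, a log2 change of 0.65 ± 0.437 (edgeR adjusted p 0.449, authors' deposited table).

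WT was the shallowest group and ZSWIM8 KO the deepest, so depth moves with this comparison, and its part in these values was not tested. In WT 1 read of the shallowest library is worth 1.16 CPM. With the deposited F read on 4 denominator degrees of freedom, none of the 6 passed. The share of all rows passing in that way is not given here, so the loss does not set the 6 apart. Of the 6 called members, 4 had a mean of 2 CPM or more in both tables. The others were miR-4772-3p and miR-6503-3p, the latter at 1.61 CPM over the ZSWIM8 table.

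**Figure D2:**
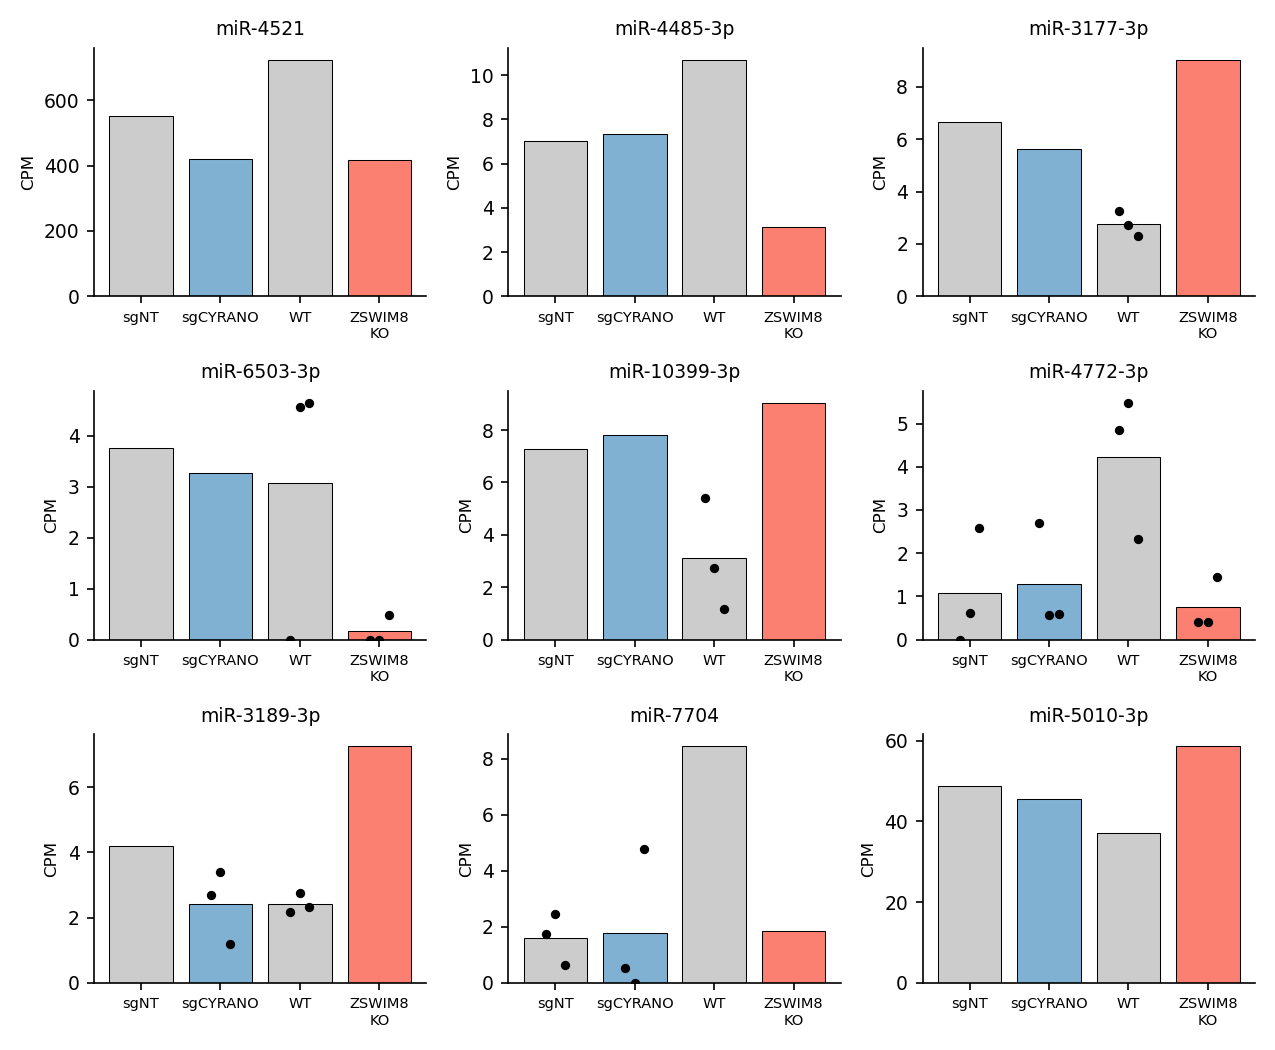
Mean CPM in each of the 4 groups for the 9 late-numbered microRNAs of smallest p in the ZSWIM8 comparison. Bars are group means worked back from the deposited tables, and points are single libraries where whole reads gave 1 solution. WT has the highest bar for miR-4521, miR-4485-3p, miR-4772-3p and miR-7704. Of these, miR-4772-3p and miR-7704 reached the level threshold in the ZSWIM8 table alone, through WT. miR-6503-3p falls to 1 read in ZSWIM8 KO.

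The next members by p did not pass. miR-3189-3p, intronic in the stress cytokine gene GDF15, had 4, 3 and 2 reads in the WT libraries and 49 to 52 reads in ZSWIM8 KO, with means of 2.41 and 7.26 CPM. Its log2 fold change was 1.54 ± 0.558 (edgeR adjusted p 0.0551, authors' deposited table). miR-7704, in the HOXD1 gene, was at 8.45 CPM in WT against 1.85 CPM in ZSWIM8 KO (-2.12 ± 0.796 on the log2 scale in the authors' deposited table, adjusted p 0.0675, edgeR). sgNT had 1.61 CPM of it, and sgCYRANO had 1.78 CPM from 1, 0 and 8 reads. miR-5010-3p, in the proton pump gene ATP6V0A1, was at 37.1 CPM in WT against 58.7 CPM in ZSWIM8 KO (0.66 ± 0.262 in the authors' deposited table, adjusted p 0.0914, edgeR). miR-10395-3p had a log2 change of -2.43 ± 1.554 in the authors' deposited table but an adjusted p of 0.417 by edgeR, and 15 of its 18 WT reads were in the middle library. It was named after its values were seen. Both miR-7704 and miR-10395-3p reached the level threshold in the ZSWIM8 table alone, through WT, so a high WT value was part of how they were chosen.

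Single WT libraries held most reads of several scarce members. Of 50 members with 10 or more WT reads and 1 solution, 6 had 75% or more of them in 1 library: miR-10395-3p, miR-3118, miR-3140-3p, miR-3928-3p, miR-4745-5p and miR-6741-3p. miR-3140-3p had 17, 2 and 2 reads, and miR-6741-3p had 13, 0 and 3. The same count was 0 of 19 in sgNT and 0 of 33 in sgCYRANO. ZSWIM8 KO was not counted, and no share over all rows was taken, so these counts do not set the members apart. The groups also differ in how often 1 solution is found. Over all rows up to 5 CPM it was found for 503 of 503 values in WT and 408 of 473 in sgNT. It was found for 423 of 474 in sgCYRANO and 186 of 496 in ZSWIM8 KO. In 5 of the 6 WT cases the deepest WT library held them. The WT libraries were less even in depth than those of the other groups, and whether this bears on the count was not tested.

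Whole reads were found in both groups of the ZSWIM8 comparison for 88 members. The knockout libraries all lay above WT for 3 members (miR-3939, miR-4742-3p and miR-6516-5p) and all below for 5 (miR-4772-3p, miR-4775, miR-5690, miR-6833-3p and miR-6873-3p). Over all rows with reads found, 4.99% lay above and 4.99% below. Another 64 of the 88 members overlapped, against 81.3% of such rows, and 16 of the 88 had solutions of both kinds, against 8.73%. miR-4775 had 4, 7 and 3 reads in WT, a mean of 4.01 CPM, and 10 reads in all in ZSWIM8 KO, a mean of 1.42 CPM, with a log2 change of -1.42 ± 0.723 (edgeR adjusted p 0.248, authors' deposited table). Like miR-4772-3p, miR-4775 is a member through its WT value alone, so its place among the 5 lower ones is a description. Among the called members, miR-4772-3p was the one whose libraries were shown not to overlap, and miR-6503-3p was the one shown to overlap.

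**Figure D3:**
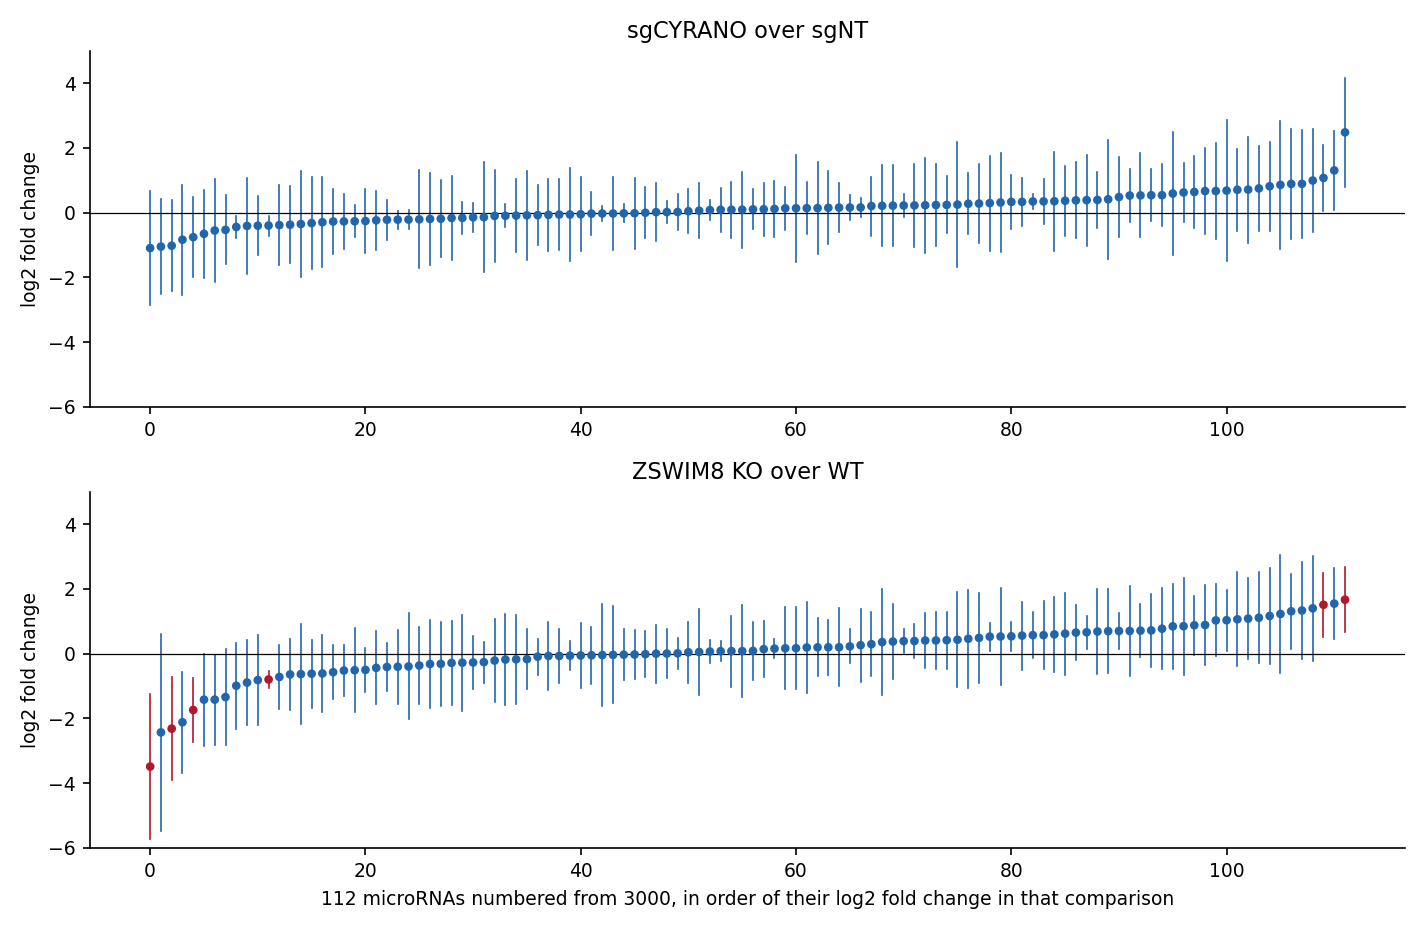
Log2 fold change of each of the 112 microRNAs in the sgCYRANO comparison (top) and the ZSWIM8 comparison (bottom), in order of the value in that comparison. Vertical lines are 95% intervals, and red marks an adjusted p under 0.05. The values run from -1.09 to 2.48 above and from -3.49 to 1.66 below.

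The standard error followed the level. In the ZSWIM8 comparison the median standard error was 0.70 for the 48 members at 2 to 4 CPM and 0.161 for the 5 at 100 CPM or more. Earlier-numbered microRNAs had 0.704 and 0.138 in the same bands. The share called at 2 to 4 CPM was 2.08% of 48 members and 7.69% of 39 earlier numbers. At 4 to 10 CPM it was 8.82% of 34 members and 6.9% of 58 earlier numbers. At 10 to 100 CPM none of 20 members was called, against 18 of 140 earlier numbers (12.9%). At 100 CPM or more it was 1 of 5 against 51 of 139 (36.7%). These shares are descriptions, and no test of them was run.

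**Figure D4:**
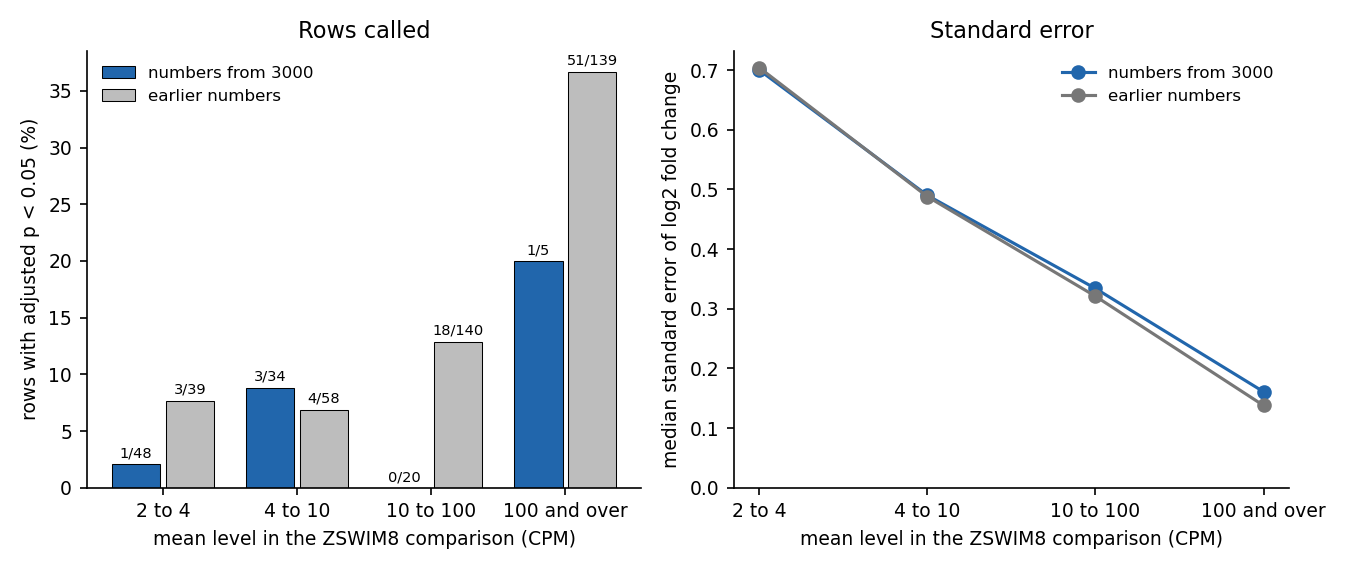
Left, percent of rows past an adjusted p of 0.05 in the ZSWIM8 comparison by mean level (CPM), for late-numbered microRNAs (blue) and earlier numbers (grey), with counts above the bars. Right, median standard error of the log2 fold change in the same bands, which falls from 0.70 to 0.161 in the late-numbered rows and lies close to that of the earlier numbers.

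Grouped by number, 15 members fall in a mirtron series (a run of numbers in which many mirtrons were registered, with miR-5010 and miR-3940). The number alone placed them, so not each is shown to be a mirtron. The hairpins of miR-5010-3p and miR-6716-3p, for example, had no end at an intron end and overlapped a sense exon. All 15 were measured as the 3p strand. None passed in either authors' deposited table by edgeR, where 0.119% and 9.91% of all rows were called. In the sgCYRANO comparison 10 of the 15 were above 0 and 5 below, with a median of 0.14. In the ZSWIM8 comparison 8 were above and 7 below, with a median of 0.26 and a range of -0.89 to 0.70. miR-5010-3p was the most abundant of them, at a mean of 47.9 CPM in the ZSWIM8 table, and 1 of the 15 had an unadjusted p under 0.05 there.

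Hairpins antisense to another microRNA hairpin numbered 6. miR-3065-5p lies opposite MIR338 and miR-3074-5p opposite MIR24-1, while miR-3130-5p, miR-3158-3p, miR-3688-3p and miR-3910 lie opposite a second copy of themselves. None of the 6 passed in either table by edgeR, where 0.119% and 9.91% of all rows were called. miR-3158-3p was the most abundant, at 66.0 CPM in WT against 63.1 CPM in ZSWIM8 KO, a log2 change of -0.07 ± 0.231 in the authors' deposited table. miR-3074-5p was at 13.1 and 19.5 CPM (0.57 ± 0.363 in the authors' deposited table), and miR-3065-5p at 4.81 and 4.57 CPM (-0.07 ± 0.53 in the authors' deposited table). Members within a protein-coding gene numbered 61, of which 2 rose and 3 fell in ZSWIM8 KO, and members with no gene on their strand numbered 18, of which miR-4521 fell. Over all rows 9.91% were called.

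Both strands of a member's hairpin were measured for 29 hairpins in the sgCYRANO table and 30 in the ZSWIM8 table. The change of the 5p strand minus that of the 3p strand passed an adjusted p of 0.05 for none of them, by a normal test over all hairpins with both strands. Over all such hairpins 0.0% passed for sgCYRANO against 3.72% for ZSWIM8. In the authors' deposited table, the 5p strand of miR-4772 had a log2 change of -2.23 ± 1.187 in ZSWIM8 KO (edgeR adjusted p 0.288). Its 3p strand, a member through its high WT value, had -2.32 ± 0.817 there. The 5p minus 3p difference was 0.09 ± 1.441, an error too wide to show whether the strands changed alike. The knockout mean of the 5p strand, 0.268 CPM, was under the 3-read limit of 0.425 CPM for that group. In miR-6503 the log2 changes in ZSWIM8 KO were -1.42 for the 5p and -3.49 for the 3p strand, a difference of 2.07 ± 1.348. In miR-4677 the strands had changes of opposite sign in the sgCYRANO comparison, 0.35 for the 5p and -0.44 for the 3p strand in the authors' deposited table, with a difference of 0.79 ± 0.399 that did not pass (adjusted p 0.966).

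The change in ZSWIM8 KO minus the change in sgCYRANO was tested over the 753 rows in both tables, which share no libraries. None of the 112 passed an adjusted p of 0.05, where 6.64% of all rows did. An unadjusted p under 0.05 was reached by 11 members. The share of all rows reaching it is not given here, so that count does not set the members apart. The largest of those near the threshold were miR-3177-3p, with a difference of 1.90 ± 0.694 (adjusted p 0.0801), miR-4485-3p with -1.80 ± 0.66 (adjusted p 0.0801) and miR-3189-3p with 2.30 ± 0.845 (adjusted p 0.0812). miR-3681-5p had a smaller difference known more closely, 0.75 ± 0.274 (adjusted p 0.0801), from 88.1 and 75.9 CPM in sgNT and sgCYRANO and 59.9 and 86.8 CPM in WT and ZSWIM8 KO. The sign of the change was the same in both comparisons for 53 of the 112. Other settings gave a few calls: miR-4485-3p passed when both tables were centred (adjusted p 0.0451), and miR-3177-3p (0.0354), miR-3189-3p (0.0352) and miR-4485-3p (0.0376) passed with standard errors taken from F. With p adjusted over rows at 10 CPM or more, miR-3681-5p (0.0367) and miR-4677-3p (0.0484) passed. The shares of all rows passing under these other settings are not given here.

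**Figure D5:**
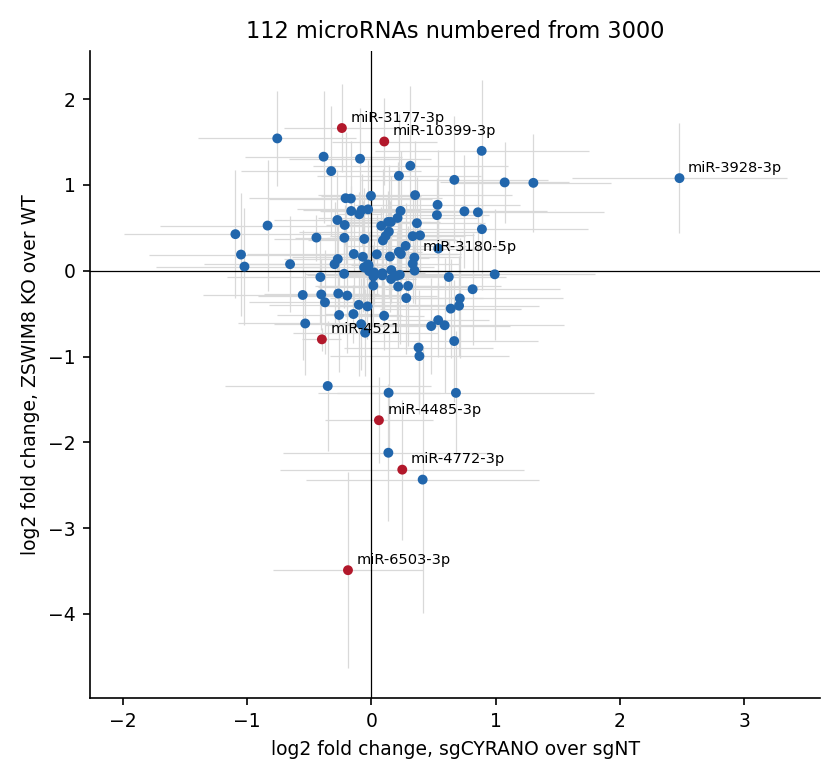
Log2 fold change in the sgCYRANO comparison (horizontal axis) against that in the ZSWIM8 comparison (vertical axis) for the 112 microRNAs. Lines are 1 standard error each way, red points are the 6 called in the ZSWIM8 comparison, and names mark these and the 3 of smallest p in the sgCYRANO comparison. Of the 112, 53 have the same sign in both.

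At the threshold of level, the lowest members were miR-6515-3p, miR-3124-5p and miR-3944-3p, whose higher mean log2 CPM was 2.004, 2.017 and 2.04. Just outside it were miR-3913-5p at 1.998, miR-3677-3p at 1.997 and miR-6886-3p at 1.995. Their log2 fold changes in ZSWIM8 KO were 1.22, -0.64 and -0.04 inside the threshold and -1.63, 1.08 and 0.77 outside it, in the authors' deposited table. None of these passed. Among all late-numbered rows in the second table under the threshold, 3 of 222 were called (1.35%).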

How the data were processed

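Small RNA of 12 K562 libraries in 4 groups of 3 was made with miRNeasy and NEBNext kits, per the labels' protocols. Tools named, with neither role nor order, in the submitters' processing notes are edgeR, featureCounts, STAR, FastQC 0.11.2 and bcl2fastq, with build hg19. The counting of reads shared by copies was not given in the sources used here. The files are the authors' deposited edgeR comparison tables: a log2 fold change, a mean log2 CPM, an F statistic (a score here) and unadjusted and adjusted p-values, per the file headers. No header gives the direction. Altered cells over control cells was assumed. The deposited p-values are the main test, with Benjamini-Hochberg adjustment over all rows.

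Group means were worked back from the deposited log2 columns with prior counts of 2 and 0.125, at which low sums are whole thousandths of a CPM. The authors' edgeR values match a fit to CPM of 3 decimals rather than to reads, though no source here states that step. Whole reads were sought to a group mean of 11.7 CPM. Standard errors are the fold change divided by the normal deviate of the deposited p. Differences were tested by a normal test. Recovery and the difference test were tried on simulated data, with results not given here (Python 3.11.15, numpy 2.4.6, scipy 1.17.1, pandas 2.3.3). For the difference test, normal errors were drawn with the same standard errors that the test uses. That trial therefore cannot show whether the errors of these data are normal.

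The design assumed 4 CPM for the earlier-numbered comparison set, and a log2 CPM of 2.0, a mean of 2 CPM, was used. Members and lists were chosen with earlier results of these data known. Named were all called members, the 5 most abundant and the 3 of smallest p in each table, members of the listed origins, both strands of a hairpin, and those next to the threshold. Sequences and coordinates come from RefSeq (GRCh38.p14) and GENCODE, which hold 865 of the 952 names.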

Additional observations from a re-analysis of the deposited data

How the results depend on the processing

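No paired analysis was possible because the tables hold no value that can be tied to a replicate number. For the same reason the replicate block, the left-out libraries, DESeq2 and other scalings of counts were not run. With 3 libraries a group and a median standard error near 0.57, changes under 2-fold in most members are beyond these data.

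The count of 6 called in ZSWIM8 KO became 3 when p was adjusted over rows at 10 CPM or more, where 25 members are left (miR-4521, miR-5010-3p with an adjusted p of 0.0398 and miR-4664-3p with 0.0496). It became 0 when the deposited F was read with 4 denominator degrees of freedom, where miR-4521 had an adjusted p of 0.158. Centred on the median of rows at 10 CPM or more, which was 0.129 in that table and -0.022 in the other, the count was still 6, but miR-10399-3p was lost (adjusted p 0.0588) and miR-7704 gained (0.0443), and the median log2 fold change became -0.049. With a threshold of logCPM 1.0 that median was 0.00, with 9 called of the 334 such rows in that table. The count of members whose change differed between comparisons was 1 when centred (miR-4485-3p), 2 at 10 CPM or more (miR-3681-5p and miR-4677-3p) and 3 with standard errors from F (miR-3177-3p, miR-3189-3p and miR-4485-3p). The shares of all rows called under these settings are not given here, so these counts do not set the members apart. The cause was not tested.

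The share of CPM moved by definition with the rows counted. For sgNT, sgCYRANO, WT and ZSWIM8 KO it was 0.202, 0.193, 0.214 and 0.203% with a threshold of logCPM 3.0, 0.235, 0.23, 0.253 and 0.242% with 1.0, and 0.216, 0.209, 0.229 and 0.22% for members at the threshold in both tables. Without miR-12136 and miR-4485-3p, the listed members that also lie in other non-coding RNA, it was 0.216% in sgNT. The count of 0 called in sgCYRANO and of 0 differing strands held under every alternative run for them.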
